A study of Mus musculus with 6 samples.

Results

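The genomic sites that phosphorylated Smad2 (pSmad2) occupied in mouse embryonic stem (ES) cells were compared between high Nodal/Activin signaling, induced with Activin, and the endogenous signaling level maintained in DMSO control cells. The comparison comprised 10588 regions and 2 of the 6 libraries of the series. E14 TG2A ES cells, an established mouse ES cell line, were moved to media with Knockout Serum Replacement (KSR) and without Leukemia Inhibitory factor, and all cells, the controls included, first received the Type I receptor kinase inhibitor SB at 10 μM for 6 h. The cells were then kept for 18 h in 25 ng/ml Activin or in a 1/5000 dilution of the DMSO carrier. A further culture stayed in 10 μM SB, and its libraries are given as levels beside the main comparison. Chromatin was precipitated with a rabbit polyclonal antibody against Smad2 phosphorylated on its carboxy-terminal serines. Each treatment had 1 ChIP library and 1 input library of DNA that had not passed the antibody, so every test below compares a pair of libraries and not cultures, and its intervals cover counting error only.

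The regions were the union of the positions in the Activin and DMSO peak lists that came with the libraries. Each Activin position was widened to both sides and each DMSO position to its left, where the DMSO tags lay, by the usual width of a peak in that list, and overlapping intervals were merged. Of the 10588 regions, 1654 came from both lists, 3355 from the Activin list only and 5579 from the DMSO list only. Together they spanned 7.03 Mb of the mm9 genome, with 468 bp as the median width. The values below are tags, which are aligned sequence reads, counted once per position and strand and called unique tags. Levels are unique tags per 10000000 unique tags outside the regions, and the ratio of Activin to DMSO is the ratio of these levels.

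Nodal and Activin are ligands of the TGFβ superfamily that bind Type I and Type II receptor kinases, which phosphorylate Smad2 and Smad3. The phosphorylated Smads join Smad4 and enter the nucleus, where they act with DNA-binding partners such as FoxH1. The pathway feeds back on itself, since Nodal and the antagonists Lefty1 and Lefty2 are among its known targets. In the mouse embryo high pathway activity is known for the induction of mesendoderm, and in ES cells endogenous activity accompanies self-renewal.

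The sequences around the highest tag pileup of the sites on which the comparison turned are shown from the mm9 genome, forward strand, 5′ to 3′. Capitals mark CAGAC, the core of the Smad binding element, and AATCCAC, the core of the FoxH1 motif, on either strand, so that GTCTG and GTGGATT are the same motifs on the reverse strand. The first 4 sites held AATCCAC and had a higher level in Activin than in DMSO, and they are shown as the tallest sites of pathway genes that held it.
Lefty2 upstream, chr1:182818921-182819120: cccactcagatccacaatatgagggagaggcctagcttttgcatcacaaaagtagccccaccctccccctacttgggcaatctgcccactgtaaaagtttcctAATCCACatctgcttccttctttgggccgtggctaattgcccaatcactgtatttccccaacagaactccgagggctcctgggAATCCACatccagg
Lefty1 upstream, chr1:182854913-182855112: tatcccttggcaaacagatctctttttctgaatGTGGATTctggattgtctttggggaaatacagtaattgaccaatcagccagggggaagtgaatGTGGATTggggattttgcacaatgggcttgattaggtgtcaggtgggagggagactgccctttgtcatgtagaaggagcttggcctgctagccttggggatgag
Nodal intron, chr10:60881950-60882149: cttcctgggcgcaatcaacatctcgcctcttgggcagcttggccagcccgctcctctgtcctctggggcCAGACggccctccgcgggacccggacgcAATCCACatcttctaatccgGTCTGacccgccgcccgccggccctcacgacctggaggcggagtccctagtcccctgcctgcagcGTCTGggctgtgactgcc
Ski intron, chr4:154563985-154564184: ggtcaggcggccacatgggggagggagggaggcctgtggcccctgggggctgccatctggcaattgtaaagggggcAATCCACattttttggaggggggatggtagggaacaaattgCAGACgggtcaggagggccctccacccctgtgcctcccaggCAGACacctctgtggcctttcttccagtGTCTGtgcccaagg

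The sites in introns of Radil and Ccrl1 were also stronger in Activin but held no AATCCAC in these windows. That of Ccrl1 is shown for its short tandem repeat, with 6 copies of CAGAC in the window printed.
Radil intron, chr5:143022506-143022705: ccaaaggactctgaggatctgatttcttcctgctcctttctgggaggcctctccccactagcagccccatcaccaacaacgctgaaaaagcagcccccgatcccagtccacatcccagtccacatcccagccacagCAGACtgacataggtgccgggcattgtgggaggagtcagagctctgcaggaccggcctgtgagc
Ccrl1 intron, chr9:104021035-104021234: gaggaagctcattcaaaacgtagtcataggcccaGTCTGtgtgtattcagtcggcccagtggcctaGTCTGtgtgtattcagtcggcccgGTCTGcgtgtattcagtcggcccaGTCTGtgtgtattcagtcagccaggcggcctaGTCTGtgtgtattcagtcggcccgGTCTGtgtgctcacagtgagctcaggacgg

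The Fgf4 and Ftl1 sites are shown as examples of sites that were weaker in Activin. The Fgf4 window held 1 copy of each motif and the Ftl1 window held neither.
Fgf4 downstream, chr7:152052137-152052336: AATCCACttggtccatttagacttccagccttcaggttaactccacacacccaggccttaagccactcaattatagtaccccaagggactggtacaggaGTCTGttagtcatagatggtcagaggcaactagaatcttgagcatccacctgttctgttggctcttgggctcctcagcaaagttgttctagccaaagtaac
Ftl1 downstream, chr7:52712677-52712876: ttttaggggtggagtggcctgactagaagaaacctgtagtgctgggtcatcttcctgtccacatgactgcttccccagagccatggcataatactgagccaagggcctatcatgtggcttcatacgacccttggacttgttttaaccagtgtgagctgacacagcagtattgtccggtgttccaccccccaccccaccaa

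The Activin ChIP library held 13148559 tags, of which 10537724 were unique, and the DMSO ChIP library 12879960 and 9713869. The 4 other libraries held 9757735 to 12708225 tags. Tags that repeated a position and strand made up 19.9% of the Activin and 24.6% of the DMSO ChIP library. The regions took 1.80% of the unique tags of the Activin ChIP library, 2.10% of those of DMSO and 1.82% of those of SB, against 0.670% to 0.821% of the 3 inputs. The SB ChIP library was the smallest, with 7663250 unique tags outside the regions against 10348572 in Activin and 9509840 in DMSO, so an equal number of tags is a higher level in SB. The median ratio was 0.757 over all 10588 regions, of which 5579 came from the DMSO list only and 3355 from the Activin list only, and 0.895 over the regions of both lists.

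At an adjusted p under 0.05, 451 regions (4.26%) had an Activin level apart from the DMSO level by an exact binomial test with Benjamini-Hochberg adjustment over all regions. Of these, 115 (1.09%) were higher and 336 (3.17%) lower in Activin, and they lay in or nearest to 113 and 329 genes, with 7 genes in both groups. All 451 had the same direction when every tag was counted, but the unique tags are part of these tags, so this is not separate evidence. The same test on the Activin and DMSO input libraries found 0 regions at this threshold and 438 regions (4.14%) at an unadjusted p under 0.05. The inputs held 73028 and 86360 unique tags in the regions, against 189152 and 204029 in the Activin and DMSO ChIP libraries. The regions were also taken from ChIP peak lists, so the input result cannot measure the error of the ChIP calls. The split between the directions depended on the scaling. With the median ratio of the regions in both lists set to 1 in place of equal tags outside the regions, which was 0.895 before or −0.16 on the log2 scale, 111 regions were higher and 50 lower, so that the share of higher calls went from 25.5% to 68.9%. Of the 115 higher calls 101 remained under that scaling, and of the 336 lower calls 50 remained. Whether pSmad2 occupancy fell at the median site or the enrichment of the Activin ChIP was lower cannot be told apart here.

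The peak list a region came from fixed most directions. Regions of the Activin list only were higher in 95 and lower in 5 cases with a median ratio of 1.53, regions of the DMSO list only were higher in 2 and lower in 312 with a median of 0.459, and regions of both lists were higher in 18 and lower in 19 with a median of 0.895. Most calls were also thin. Regions called higher held a median of 18 tags in both ChIP libraries together and regions called lower 16, against 27 in regions not called, and 33 higher regions had no DMSO tag and 103 lower regions no Activin tag. With at least 13 unique tags over the region in 1 library and a ratio of 1.5-fold, with no test, 1393 regions (13.2%) were higher and 2738 (25.9%) lower in Activin. The study used the numbers 13 and 1.5 for other measures. Its 13 tags had to overlap within a peak, and its 1.5-fold was for peak heights summed per gene. The description below therefore starts from 410 strong regions, those with at least 100 unique tags in both ChIP libraries together and at least 2 times the own input in the higher library.

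Among the 410 strong regions, 12 (2.93%) were higher and 18 (4.39%) lower in Activin, and the median ratio was 0.854. The 10 of the 12 higher sites described here belonged to genes of the pathway itself, Lefty1, Lefty2, Nodal and Ski, and to Radil, Ccrl1, Trim67, Etnk1, Pkdcc and Mllt6. Their ratios ran from 1.29 at Lefty1 to 2.66 at Trim67. The level in the SB ChIP library was below that of DMSO at 11 of the 12 sites and near it at Mllt6.

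The tallest site of Lefty2, which encodes an extracellular Nodal antagonist, lay 4218 bp upstream of the gene at chr1:182818617-182819789. It held 436 unique tags in the Activin and 284 in the DMSO ChIP library, levels of 421 and 299, against 19.6 in SB and 11.3 to 19.4 in the inputs. Activin was the highest library and SB lay at the height of the inputs. The ratio was 1.41 (95% Clopper-Pearson interval 1.21–1.64) with an adjusted p of 0.00736 in the exact binomial test. The tallest site of the related antagonist gene Lefty1, 10140 bp upstream at chr1:182854598-182855687, had levels of 378 with Activin, 293 with DMSO and 37.8 with SB, with inputs of 16.1 to 17.6. The order of the libraries was that of Lefty2, and the ratio was smaller, 1.29 (1.10–1.51), with an adjusted p of 0.0403 in the exact test that was lost under scaling by GC content, where the ratio was 1.26. Lefty1 also had a weaker site in its own exons, 2057 bp from the start, with 50 tags with Activin, 15 with DMSO and 5 with SB, at a ratio of 3.06 (1.69–5.87) and an adjusted exact p of 0.0173.

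Nodal, the ligand gene itself, had its tallest site in an intron 1330 bp from the start at chr10:60881611-60882810. The levels were 150 with Activin, 99.9 with DMSO and 58.7 with SB, with inputs of 12.4 to 20.3, so that SB stood above the inputs here. The ratio of 1.5 (1.15–1.96) had an adjusted exact p of 0.0479, and the call was lost under scaling by GC content, where the ratio was 1.46. Ski, which encodes a nuclear corepressor that binds Smads, had its tallest site in an intron at chr4:154563667-154564764 with levels of 248 with Activin, 181 with DMSO and 49.6 with SB and inputs of 19.6 to 27.7. Activin was again the highest library, with a ratio of 1.37 (1.13–1.68) and an adjusted exact p of 0.0419, lost under scaling by GC content at a ratio of 1.35. The calls at Nodal, Ski and the upstream Lefty1 site were close to the threshold and were lost in 8 of 14, 7 of 13 and 5 of 14 other settings, with ratios above 1 in all of them.

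The strong sites of Radil and Ccrl1 had larger ratios than the tallest sites of these genes. In an intron of Radil, a gene of a Rap GTPase effector, levels were 162 with Activin, 77.8 with DMSO and 13 with SB, a ratio of 2.09 (1.58–2.78) with an adjusted exact p of 0.000265. In an intron of Ccrl1, an atypical chemokine receptor gene, levels were 93.7, 35.8 and 7.83 in the same order, a ratio of 2.62 (1.76–4.0) with an adjusted exact p of 0.00144. Both sites were well above DMSO in Activin, and SB was at 1.71 and 1.82 times the pooled inputs there. Because the window at Ccrl1 is a tandem repeat, tags placed in it could come from several units of the repeat.

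A further 4 strong sites higher in Activin were less tall. Trim67, a gene of the tripartite motif family, had 81 tags with Activin, 28 with DMSO and 9 with SB at an intron (2.66, 1.71–4.24). The site 26129 bp upstream of Etnk1, an ethanolamine kinase gene, had 77, 34 and 13 tags (2.08, 1.37–3.21). The site 48467 bp upstream of Pkdcc, the gene of a secreted kinase, had 113, 61 and 8 tags (1.70, 1.24–2.36). At these sites SB was at 1.02 to 1.57 times the pooled inputs. The promoter of Mllt6, a gene of a zinc finger protein known from leukemia fusions, differed in that SB, with 34 tags, was near the 41 of DMSO, while Activin had 82, a ratio of 1.84, and the Mllt6 call was lost and its ratio fell to 1.06 when only 400 bp around the highest pileup were counted.

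**Figure D1:**
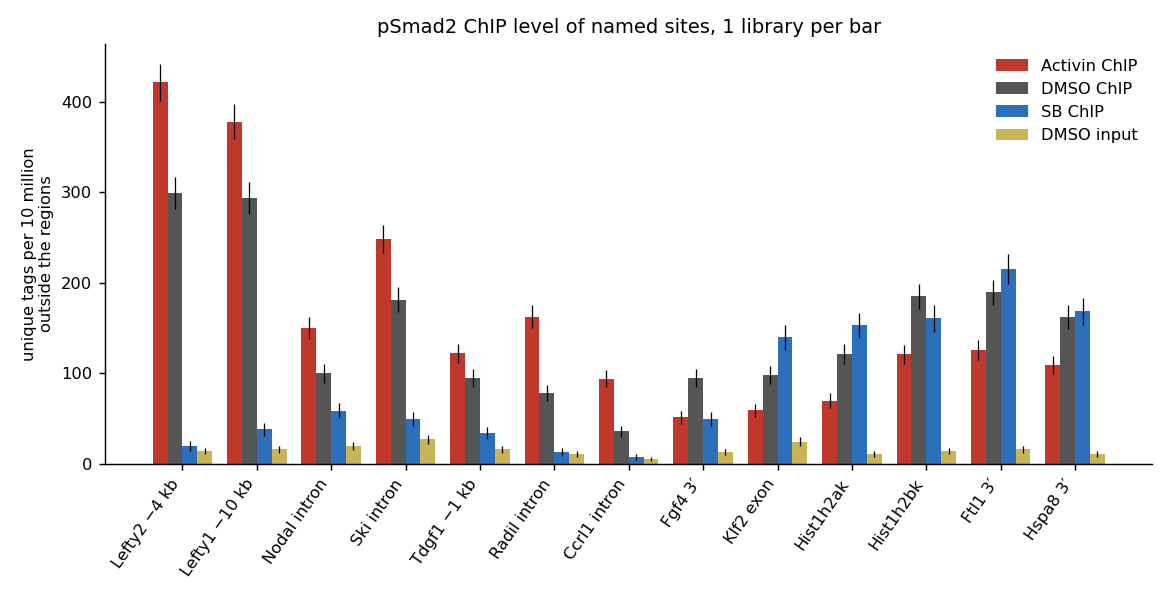
Levels of the ChIP libraries and of the DMSO input at 13 named sites, as unique tags per 10000000 unique tags outside the regions (vertical axis from 0); each bar is 1 library and the thin lines are the square root of its count, so they show counting error only. At the 7 sites on the left, from Lefty2 to Ccrl1, Activin stands above DMSO and SB below it. SB is near the DMSO input at Lefty2 and well above it at Nodal. At the 5 sites on the right of Fgf4 Activin is the lowest of the 3 ChIP libraries.

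The 18 strong sites lower in Activin included Fgf4 and Klf2, described below, and Enc1, Prss12, Mid1 and Iffo1. Enc1 was only the nearest gene, with its site 236784 bp downstream. Others were Hist1h2ak, Hist1h2bk and Hist1h2ab of the replication-dependent histone cluster, the ferritin light chain gene Ftl1, the glycolytic aldolase gene Aldoa, the heat shock cognate gene Hspa8 and the respiratory chain gene Ndufb10. All 18 calls were lost when the median ratio of the regions in both lists was set to 1, with ratios that were then 0.572 at Prss12 to 0.981 at Pgk2, all still below 1. Of the 18, 12 came from both lists, 5 from the Activin list only and 1 from the DMSO list only.

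At Ftl1 the site lay 537 bp downstream of the gene at chr7:52712407-52713500, with levels of 126 with Activin, 189 with DMSO and 215 with SB and inputs of 13.9 to 18.5. Activin was the lowest and SB the highest ChIP library, the reverse of the Lefty2 order, and the ratio was 0.664 (0.526–0.836) with an adjusted exact p of 0.0329. Hspa8, with its site 1705 bp downstream of the gene, had levels of 109 with Activin, 162 with DMSO and 168 with SB, a ratio of 0.674 (0.524–0.865) with an adjusted exact p of 0.0423. Hist1h2bk had levels of 121 with Activin, 185 with DMSO and 161 with SB (0.653, 0.515–0.826), and Hist1h2ak of 69.6, 121 and 153 (0.575, 0.422–0.779). The histone genes have near-identical copies, so the division of tags between them is uncertain.

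Fgf4, the gene of a growth factor that ES cells secrete, had its tallest site 1089 bp downstream of the gene at chr7:152051177-152052598. It held 53 unique tags with Activin, 90 with DMSO and 38 with SB, levels of 51.2, 94.6 and 49.6 against inputs of 7.21 to 12.9. DMSO was the highest library at Fgf4, and Activin and SB were alike in level. The ratio was 0.541 (0.378–0.768) with an adjusted exact p of 0.0329. Klf2, a Krüppel-like factor gene of the pluripotency network, had a region over its exons with levels of 58.9 with Activin, 97.8 with DMSO and 140 with SB, a ratio of 0.603 (0.429–0.841) and an adjusted exact p of 0.0496. The tallest region of Klf2, at its promoter, had levels of 50.2 with Activin, 65.2 with DMSO and 149 with SB and did not pass, with a ratio of 0.771 (0.523–1.13).

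The remaining strong sites lower in Activin had ratios from 0.512 to 0.879. The site nearest 1, 362330 bp downstream of Pgk2, held 1487 unique tags in Activin and 1555 in DMSO but also 737 and 892 in their inputs. It held 45529 and 65240 tags in all, a ratio of 0.680, so the unique tags leave out most tags there. Its GC content was 69.6%, and its unique-tag ratio turned to 1.14 under scaling by GC content. The site near Rpp21, a ribonuclease P subunit gene, had 166 and 226 unique tags but 1294 and 3916 tags in all, and the inputs held 36 and 88.

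**Figure D2:**
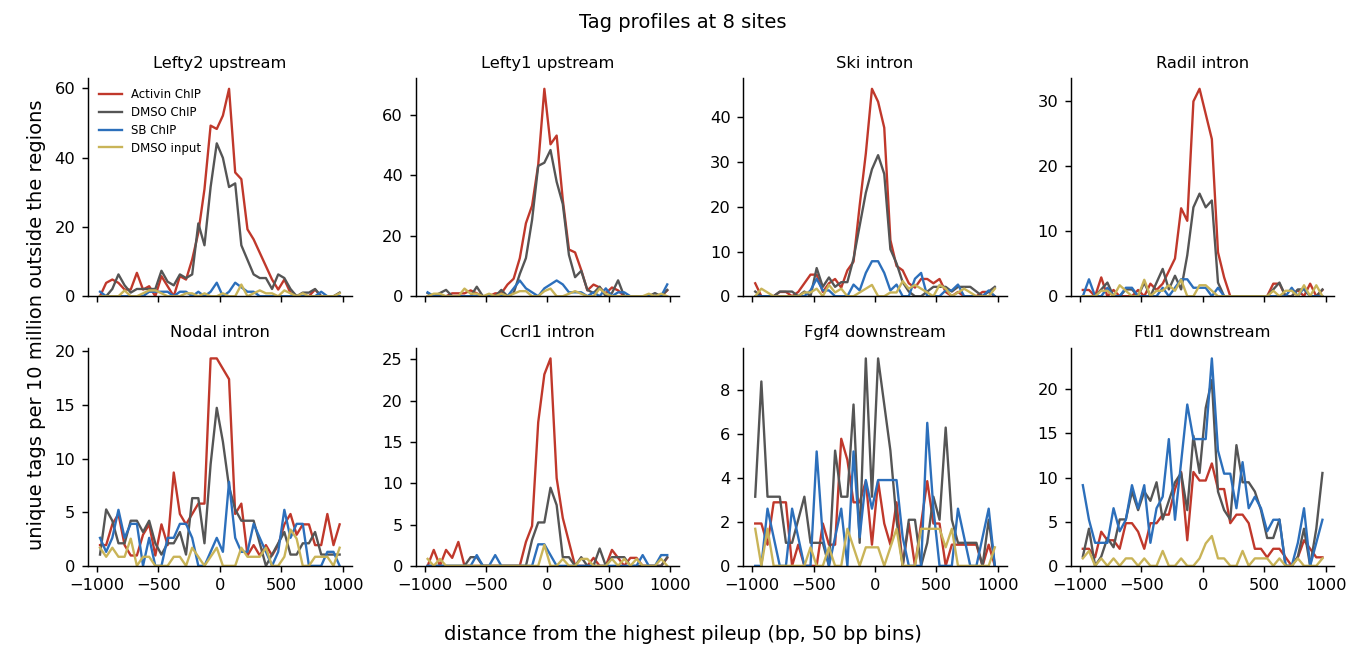
Unique tags in 50 bp bins per 10000000 unique tags outside the regions (vertical axis, each panel with its own scale) by distance from the highest pileup in bp, for the 3 ChIP libraries and the DMSO input at 8 sites. At Lefty2, Lefty1, Ski, Radil, Nodal and Ccrl1 the Activin line peaks above the DMSO line, at Fgf4 the DMSO line is the highest, and at Ftl1 the SB and DMSO lines are above the Activin line.

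Among the strong regions the Activin to DMSO ratio varied with the SB level. The SB library had no part in the calls, and the division was chosen after its values were seen, so it is given as a description. In 42 strong regions the SB ChIP was under 2 times the pooled inputs. Of these, 8 were higher and 0 lower in Activin, 36 had a ratio above 1, and the median ratio was 1.28 with quartiles of 1.06 and 1.41. In the 114 regions with SB at 2 to 4 times input, 4 were higher and 3 lower, 33 were above 1, and the median was 0.878. In the 254 regions with SB at 4 times input or more, 0 were higher and 15 lower, 35 were above 1, and the median was 0.818. The strong sites that were near the input in SB thus mostly had a higher level with Activin than with DMSO. The median input ratios of the 3 classes were 0.931, 0.907 and 0.919, and their median GC contents 50.3%, 51.2% and 50.2%. With the median of the shared regions set to 1, the medians were 1.43, 0.981 and 0.913, the 8 higher calls became 10, and the 15 lower calls of the last class became 0. The same division of all 10588 regions, most of them thin, showed this order in the regions above 1 but not in the median ratio. A ratio above 1 was found in 2415 of the 6198 regions with SB under 2 times input. It was found in 1050 of the 3495 at 2 to 4 times and in 173 of the 895 at 4 times or more. Higher calls numbered 100, 15 and 0 in these 3 classes and lower calls 225, 72 and 39. The median ratio was lowest in the first class, at 0.715, against 0.778 at 2 to 4 times and 0.790 at 4 times or more.

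Genes of the 42 regions included more than the pathway genes. Beside Lefty2, Ski, Smad7 and Tdgf1 they held Irf2bp2, Nphs1, Chd6, Bcar3, Slc38a7 and Cd83, none of which passed the test. The regions nearest Irf2bp2 and Cd83 lay 30659 and 215714 bp downstream of these genes. The region nearest Chd6, the gene of a chromodomain helicase, lay 57868 bp upstream of it. That region had 91 tags with Activin, 49 with DMSO and 7 with SB with a ratio of 1.71 and an adjusted exact p of 0.0526. Nphs1, the nephrin gene, had 128, 82 and 16 tags with a ratio of 1.43 and an adjusted exact p of 0.0878. Of the 6 regions with ratios below 1, the lowest was near Gm4694 with 64, 85 and 38 tags and a ratio of 0.692, and none was called lower.

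**Figure D3:**
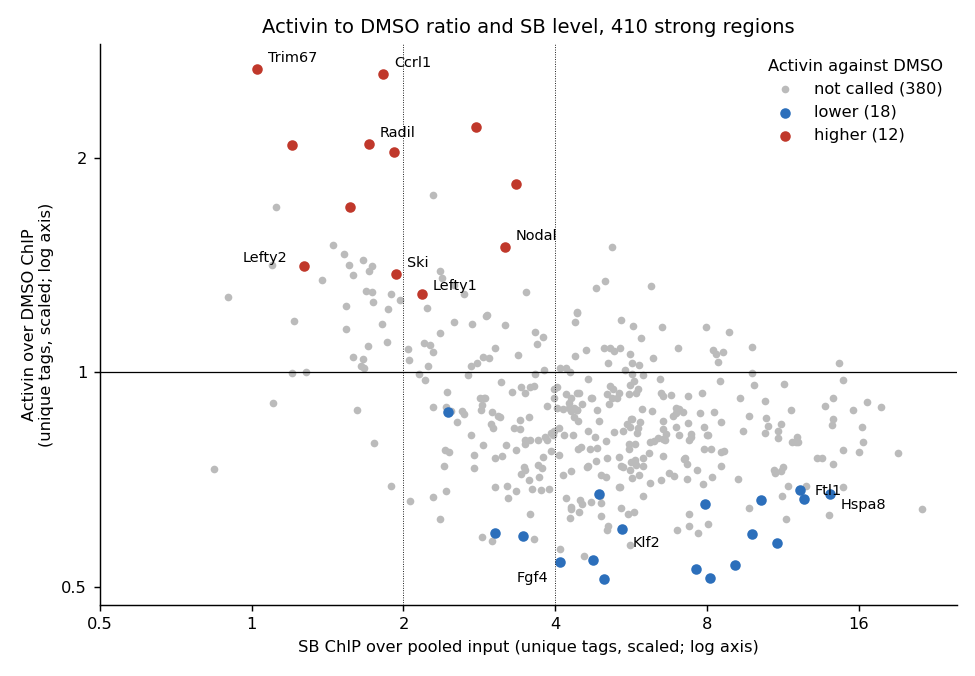
Ratio of Activin to DMSO ChIP (vertical, log axis) against SB ChIP over the pooled inputs (horizontal, log axis) for 410 strong regions, each point 1 region; red marks the 12 called higher, blue the 18 called lower, and dotted lines mark 2 and 4 times input. Of the points left of 2 times input 36 of 42 lie above a ratio of 1, and right of 4 times input 35 of 254 do.

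The share of strong regions with the AATCCAC motif also varied with the SB level. Within 200 bp around the highest pileup it was present, on either strand, in 18 of the 42 strong regions with SB under 2 times input (42.9%, exact 95% interval 27.7–59.0%), in 7.89% (3.67–14.5%) of those at 2 to 4 times and in 1.97% (0.642–4.53%) of those at 4 times or more. Over all regions the shares of these classes were closer to each other, 4.34%, 3.06% and 1.79%. Of 10000 genome positions drawn at random, 2.40% held it in a window of the same length. All 18 strong regions with the motif and SB under 2 times input had a ratio above 1, with a median of 1.38, and 18 of the 24 of that class without the motif did, with a median of 1.2. Over all 10588 regions, 392 held the motif, of which 13 were higher and 7 lower with a median ratio of 1.10, against 102 higher and 329 lower with a median of 0.747 among the 10196 without it. The share with AATCCAC was 11.3% (6.16–18.6%) in regions called higher, 2.08% (0.842–4.25%) in regions called lower and 3.67% in regions not called.

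CAGAC, by contrast, was common in all classes of call. It was present in 45.2% of higher, 40.5% of lower and 45.1% of uncalled regions, and in 33.6% of the random positions. The shorter CAGA, which includes every CAGAC, was in 93.9%, 95.2% and 93.1% of them and in 90.9% of the random positions, so windows of this length nearly all hold it. Among strong regions CAGAC was present in 59.5% (43.3–74.4%) of those with SB under 2 times input and in 36.6% (30.7–42.9%) of those with SB at 4 times or more. The position relative to genes differed as well. A start site lay within 1 kb in 6.09% (2.48–12.1%) of the higher, 16.4% (12.6–20.8%) of the lower and 16.9% of the uncalled regions, and among strong regions in 2.38% of those with SB under 2 times input and 32.3% of those at 4 times or more. These shares describe letters and positions in the windows, with no test.

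The sites of 133 genes of the pathway and of its neighbours were then followed by role, counting each region in a gene or within 10 kb of it. Of the 133 genes 61 had a site, and they had 195 sites, of which 9 (4.62%) were higher and 4 (2.05%) lower in Activin, beside 1.09% and 3.17% of all regions, with a median ratio of 0.919. The tallest site of each gene had a ratio above 1 in 35 of the 61 (57.4%, exact interval 44.1–70%). The lists were chosen with earlier results of these data known, and these counts carry no test of the lists.

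The ligand and coreceptor list had 4 of 9 genes with a site and 18 sites, of which 1, at Nodal, was higher and 0 lower. Tdgf1, the gene of the Nodal coreceptor Cripto, had its tallest site 1439 bp upstream with levels of 122 with Activin, 94.6 with DMSO and 33.9 with SB, a ratio of 1.29 (0.974–1.71) that did not pass. Gdf3, a Nodal-related ligand gene, had 27 tags with Activin, 24 with DMSO and 14 with SB, and Gdf1 had 81, 101 and 123 at a ratio of 0.737 (0.543–0.997), also not called. Among the extracellular antagonists 6 of 8 genes had 16 sites, of which 3 were higher and 0 lower, all 3 at Lefty1 and Lefty2. Fst, the gene of the Activin-binding protein follistatin, had 15 tags with Activin, 4 with DMSO and 3 with SB and did not pass. The receptors, Smads and their partner had little signal, with 2 of 10 genes holding 3 sites and none called.

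All 9 genes of the intracellular feedback inhibitors had a site. Of their 40 sites 1, at Ski, was higher and 0 were lower, and the median ratio was 0.998. Smad7, the inhibitory Smad gene, had its tallest site 6476 bp upstream with levels of 89.9 with Activin, 69.4 with DMSO and 14.4 with SB. SB was the lowest of the ChIP libraries there, but the ratio of 1.29 (0.934–1.80) missed the threshold with an adjusted exact p of 0.275. Ldlrad4 and Pmepa1, whose products bind Smads, had ratios of 1.43 (0.933–2.21) and 1.13 (0.726–1.75), with SB at 14 and 9 tags against 38 and 40 in DMSO. Tgif1, a homeobox corepressor gene, and Skil, a relative of Ski, had ratios of 0.582 (0.377–0.888) and 0.750 (0.451–1.24) and were not called either.

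Among the mesendoderm genes 6 of 18 had 13 sites, with 2 higher and 1 lower. The lower one was assigned to Tbx6 at a distance of 8910 bp but lay 764 bp downstream of Aldoa, with levels of 99.5 with Activin, 150 with DMSO and 145 with SB. Fgf8, the gene of a growth factor of the primitive streak, had 44 tags with Activin, 25 with DMSO and 16 with SB at a site 3263 bp upstream (1.62, 0.968–2.76), and Wnt3 24, 20 and 6 (1.10, 0.584–2.11). Neither passed the test. The Fgf8 site came from the Activin list only and had Npm3 as its nearest gene. None of the 13 trophectoderm markers, genes of the lineage that forms the placenta, had a site. The BMP genes had 6 of 14 genes with 8 sites and none called, with a median ratio of 0.576 at 2 to 34 tags in Activin.

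The pluripotency factors had more sites than any other list, 55 at 12 of 18 genes, of which 0 were higher and 2 lower, with a median ratio of 0.827. The lower sites were at Klf2 and at Zfp42, the gene of the ES cell marker Rex1. The called Zfp42 region, over an exon, had 8 tags with Activin, 26 with DMSO and 22 with SB, a ratio of 0.283 (0.111–0.643) with an adjusted exact p of 0.0403. Its tallest region, in an intron, had levels of 40.6 with Activin, 73.6 with DMSO and 63.9 with SB and just missed the threshold at 0.551 (0.367–0.820). At Pou5f1, which encodes Oct4, the tallest site lay 1997 bp upstream with levels of 46.4 with Activin, 36.8 with DMSO and 18.3 with SB against inputs of 13.4 to 16.9. The ratio of 1.26 (0.798–2.01) did not pass, and the interval includes a difference of 2-fold. Sox2 was highest in SB, with levels of 107 with Activin, 98.8 with DMSO and 181 with SB, and Esrrb lowest, with 68.6, 63.1 and 18.3, while their ratios were both 1.09. Nanog had 33, 41 and 19 tags at a ratio of 0.740 (0.453–1.2).

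The FGF genes had 20 sites at 7 of 15 genes, 1 higher and 1 lower. The lower site was that of Fgf4 above, and the higher one lay in an intron of Spry4, a feedback inhibitor gene of FGF signaling, with 25 tags with Activin, 6 with DMSO and 15 with SB (3.83, 1.53–11.4, adjusted exact p of 0.0470), where the inputs held 10 and 3. The Wnt genes had 15 sites at 5 of 14 genes and none called, with a median ratio of 0.562. A list of 11 genes that the study names for their response to Activin had 23 sites at 10 genes, of which 6 were higher and 0 lower, with a median of 1.41. That list was taken from the study, which drew on expression in related samples and on these same ChIP libraries, as for Radil. Its Lefty1 and Tmem63a entries also share regions. For both reasons the list is not independent evidence of direction. Chst15, a sulfotransferase gene of the list, had 43 tags with Activin, 22 with DMSO and 8 with SB at its promoter (1.80, 1.05–3.15) and Spsb1 72, 60 and 18 (1.10, 0.772–1.58), and neither was called.

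**Figure D4:**
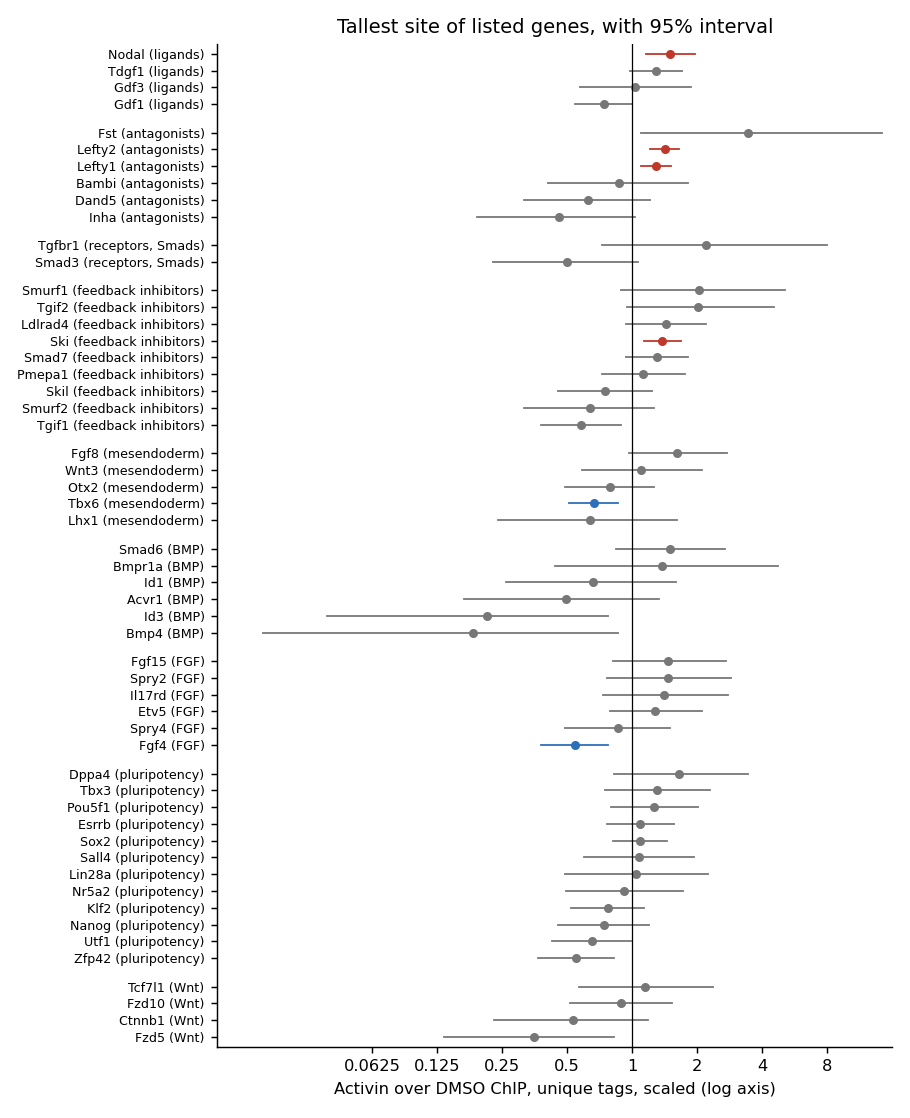
Activin to DMSO ratio of unique tags (horizontal, log axis) at the tallest site of listed genes reported here, by list and without the list the study named; points are the ratio and lines its 95% Clopper-Pearson interval, red called higher, blue called lower and grey not called. Nodal, Lefty2, Lefty1 and Ski lie above 1, and most other intervals cross 1. Called lower are the site of Fgf4 and the tallest site assigned to Tbx6, whose nearest gene is Aldoa. Some intervals of sites not called also lie on 1 side of 1, such as those of Tgif1 and Zfp42 below it and of Fst above it.

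The regions with the most extreme ratios were thin and came from 1 peak list each. Of the 12 named by the interval bound farthest above 1, all came from the Activin list only. The intron of Ddah1, a gene of arginine derivative metabolism, held 17 tags with Activin, 0 with DMSO and 5 with SB, with a lower limit of 3.79 for the ratio in the 95% Clopper-Pearson interval. Dip2c and the region nearest Acpp held 16, 0 and 0, with a lower limit of 3.54. Regions in Zbtb7c and Glis3 and nearest Ncam2, Stac, Zfp706 and Pcdh11x also had 0 tags in DMSO and 12 to 15 in Activin. Those in Epb4.1l1, Aacs and Me1 had 20 to 24 in Activin and 1 or 2 in DMSO. The region nearest Ncam2 lay 1010744 bp upstream of it, and those nearest Stac, Zfp706 and Pcdh11x lay 148365, 73020 and 56503 bp away. For Aacs, the gene of a ketone-body ligase, 24 against 2 tags gave a ratio of 11.0 (2.74–96.3). In the input the Ddah1 region held 3 tags in Activin and 9 in DMSO.

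The 12 regions farthest below 1 all came from the DMSO list only. Nucks1, Mettl13 and Dnajb12 held 0 tags in Activin and 16 in DMSO, with an upper limit of 0.238 for the ratio in that interval, and 7, 5 and 14 in SB. Alkbh1 held 0 and 15. Syt9, Rapgef4, Gtf2e1 and the region 244897 bp downstream of Fgfr2 held 0 and 13, and Tomm34 and Zfp292 0 and 12. Fam110a held 1 and 19 tags (0.0484, 0.00116–0.304) and Grlf1 1 and 18 (0.0511, 0.00123–0.323). Dnajb12 and Grlf1 lay at promoters of 69.9% and 70.9% GC, and windows outside the regions had a ratio between the same libraries of 0.768 at 67.5 to 70% GC and of 0.680 at 70 to 72.5% GC. With at least 13 unique tags required in 1 library, 67 regions remained higher and 146 lower. The calls on the 24 regions named here rest on 0 to 2 tags in the lower library.

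Of the 5 regions with the most unique tags in each ChIP library, 4 were the same, and besides Pgk2 they lay near Axin2, with levels of 516 with Activin, 576 with DMSO and 705 with SB, and in Eftud1, with 461, 493 and 668. SB was the highest ChIP library at both, and the SB input was also the highest input. The inputs of Activin, DMSO and SB had levels of 165, 164 and 223 near Axin2 and 68.4, 76.9 and 111 in Eftud1. Near Axin2 the Activin and DMSO ChIP libraries held 14494 and 17212 tags in all against 534 and 548 unique tags. The Activin to DMSO ratios of 0.895 (0.793–1.01) near Axin2 and 0.935 (0.821–1.06) in Eftud1 were not called. Lefty2, with its 436 tags, was the only one of the tallest in Activin with a low SB level. In DMSO the fifth was near Gm10801, where the inputs of Activin and DMSO had levels of 368 and 342 against 373 and 407 in their ChIP libraries. By base composition, the median ratio was 0.625 in the 1220 regions under 40% GC, 0.746 at 40 to 50%, 0.796 at 50 to 60% and 0.747 at 60 to 70%. The 32 regions above 70% GC had 0 higher and 5 lower calls with a median of 0.459. Scaling within classes of GC content gave 103 higher and 332 lower regions.

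Neighbouring regions were also summed. A set of 420 loci, runs of at least 4 regions with gaps of at most 10 kb chosen after seeing the data, had 5 (1.19%) higher and 154 (36.7%) lower in Activin by the same exact test adjusted over the loci, and with the median of the shared regions set to 1 these counts were 6 and 29. The loci were built from 2618 regions of the peak lists, 1375 of them from the DMSO list only, 622 from the Activin list only and 621 from both, so the sums and calls in part follow the lists and are given as a description. Those higher included Lefty1, Nodal, Ski and a locus with 2210011C24Rik. The Zfp42 locus had all of its 16 regions below 1, of which 9 came from the DMSO list only and 0 from the Activin list only.

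**Figure D5:**
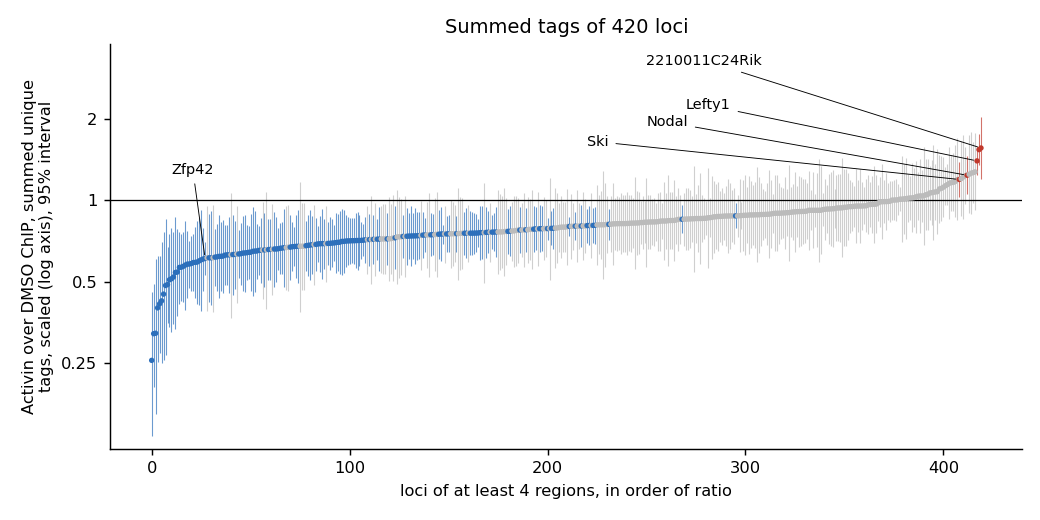
Activin to DMSO ratio of unique tags summed over 420 loci (vertical, log axis) in order of the ratio (horizontal, rank); points are loci and lines 95% Clopper-Pearson intervals, red for the 5 called higher, blue for the 154 called lower, grey for the rest. Lefty1, Nodal and Ski lie at the upper end with ratios of 1.2 to 1.40, and Zfp42 near the lower end at 0.609.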

How the data were processed

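The 6 libraries of the series, a pSmad2 ChIP and an input for each of 3 conditions, were read from the tag files (BED) and the peak lists deposited by the authors. The tag files hold the authors' aligned 35 bp tags on mm9, per the labels, with no normalization, and the counts below were made from these deposited tags. The aligner and its settings were not stated in the sources used here. Of the deposited peak lists only the positions were used, and their tag values, fold changes and p-values were not.

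Tags were moved 100 bp inward from their 5′ end and counted per region, in all and once per position and strand (unique tags), since tags that share a position are not independent molecules. Activin and DMSO were scaled by unique tags outside the regions (factor 1.0882; 1.02689 for all tags). Each region was tested with a two-sided exact binomial test with Benjamini-Hochberg adjustment over all 10588 regions; ratios carry 95% Clopper-Pearson intervals, of which only 1 limit is given where a library had 0 tags. Precision is set by the tags of a region, and intervals cover counting error only. The SB libraries were given as levels, and SB over input is its scaled unique tags plus 1 over those of the 3 pooled inputs plus 1. Some items are not reported here. The script was tested on simulated data.

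Genes and start sites were taken from an mm9 annotation, without transcripts over 2.4 Mb; a region takes the coding gene it overlaps or lies nearest to, and a site of a listed gene lies in it or within 10 kb. All 133 listed genes matched, 3 by an older symbol. Motifs were counted on both strands in 200 bp around the highest pileup. The members and lists were chosen with earlier results of these data known. Named were the tallest site of listed genes, the 12 regions called in each direction whose interval bound lay farthest from 1 and whose higher library had 2 times its input, and the 5 tallest regions per library. The strong regions, their division by SB level, the loci of neighbouring regions and the histone and ribosomal protein groups were chosen after seeing the data. Alternatives covered tag counting, scaling, tag move, region width, thresholds, input and peak lists. Python 3.11.15, numpy 2.4.6, pandas 2.3.3, scipy 1.17.1 and matplotlib 3.10.9 were used.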

Additional observations from a re-analysis of the deposited data

How the results depend on the processing

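The counts of called regions depended on the setting, and so did the split between the directions. The share of higher calls was 25.5% in the main setting and ran from 23.7% with GC scaling to 72.8% with GC content together with the shared median. In place of 115 higher and 336 lower regions, all tags gave 622 and 1897, 400 bp around the highest pileup 74 and 235, an adjusted p under 0.01 gave 8 and 5, at least 13 unique tags 67 and 146, and regions of both lists tested alone 11 and 10. Setting the median ratio of the shared regions to 1 gave 111 and 50, and the settings added after seeing the data gave 15 and 28 for strong regions tested alone and 126 and 47 for GC content together with the shared median. Scaling by library totals, GC content, a tag move of 50 bp or none, a ratio of at least 2 and the removal of regions with high input kept both counts within 1.5 times. The regions called were not all the same. Of the 115 higher and 336 lower calls, 86 and 220 recurred with tags not moved and 87 and 232 with a move of 50 bp. With 400 bp around the highest pileup 42 and 156 recurred. Input regions that differed numbered 3 with all tags, an alternative added later. In windows of 100 bp CAGAC was in 32.2% of higher and 22.6% of lower regions and CAGA in 80.0% and 73.2%, and within 5 kb of a start site lay 20.9% and 32.4%. Over the named sites and all settings 1325 values kept direction and side of the threshold, 219 lost the call, 14 gained one and 16 turned direction. Those that turned were Nr5a2 with the shared median (1.03), with 400 bp (2.3) and with GC and shared median (1.01), Sall4 with 400 bp (0.976), Lin28a and Fzd10 with all tags (0.925 and 1.00), Gdf3 and Esrrb with tags not moved (0.851 and 0.993), Orai3 with 400 bp (1.03) and with GC and shared median (1.06), and, with GC scaling and with GC and shared median, the Klf2 promoter (1.00 and 1.13), Pgk2 (1.14 and 1.29) and Bambi (1.02 and 1.14). Of these only Pgk2 was called, and the cause was not tested for the others. The lower calls of all 18 strong sites were lost with the shared median. The share of tallest listed sites above 1 ranged from 53.1% to 69.0%. No paired analysis was possible because each group has 1 library. Depth limits the comparison, since uncalled regions held a median of 27 tags in both ChIP libraries together.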

Other observations

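Neighbouring regions were also summed into 420 loci, runs of at least 4 regions with gaps of at most 10 kb, a grouping chosen after seeing the data. By the exact binomial test with Benjamini-Hochberg adjustment over the loci 5 (1.19%) were higher and 154 (36.7%) lower in Activin, with a median ratio of 0.798, and the inputs differed at 0 loci, with 31 at an unadjusted p under 0.05. The regions of a locus came from the peak lists, most often from the DMSO list only, so these counts are a description. The inputs held fewer tags in the regions than the ChIP libraries, so the input result cannot measure the error of the ChIP counts. With the median of the shared regions set to 1, 6 loci were higher and 29 lower. The locus of Lefty1, with Tmem63a beside it, held 689 unique tags in Activin and 452 in DMSO (1.40, 1.24–1.58), Nodal 348 and 258 (1.24, 1.05–1.46) and Ski 428 and 329 (1.2, 1.03–1.38). The locus of 2210011C24Rik and Samd1 held 160 and 94 (1.56, 1.2–2.04), with an SB level of 127 that was above the 98.8 of DMSO, unlike those of Lefty1, Nodal and Ski. The Tdgf1 locus, with 344 and 279 tags, was called under the shared median alone, at 1.27.

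At the Zfp42 locus all 16 regions at chr8:44372279-44392405 had a ratio below 1, and together they held 319 tags in Activin and 481 in DMSO, levels of 308 and 506 with 405 in SB. DMSO was the highest of the ChIP libraries, and the input ratio was 1.07. The ratio of 0.609 (0.527–0.704) is a description, since 9 of the 16 regions came from the DMSO list only, 7 from both lists and 0 from the Activin list only. With the shared median set to 1 it was 0.681. Zfp42 encodes Rex1, a zinc finger protein used as a marker of undifferentiated ES cells.

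Histone and ribosomal protein genes were looked up as groups because several of their sites had been called lower, so their counts are a description. Of 60 regions at histone genes 0 were higher and 6 lower (10.0%, against 3.17% of all regions), 54 had a ratio below 1, and the median was 0.775, beside 0.757 over all regions. Their median SB level was 9.21 times the pooled inputs. Of all 895 regions with SB at 4 times input or more, only 173 (19.3%) had a ratio above 1. The summed level of the histone regions was 4007 with Activin, 5208 with DMSO and 5883 with SB, and the sums gave a ratio of 0.769 against 0.863 in the inputs. The linker histone genes Hist1h1b and Hist1h1c held the most tags, 234 and 217 in Activin against 241 and 238 in DMSO. Of 197 regions at ribosomal protein genes 0 were higher and 4 (2.03%) lower, at Rps3, Rpl27, Rpl3 and Rps10, and the median was 0.766. Both medians were near that of all regions, and the histone copies share near-identical sequence.

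Among strong regions, 10 held CAGAC at least 4 times in the 200 bp window. Of these 2 were higher in Activin, among them Ccrl1, 0 were lower, and 7 had a ratio above 1, with a median of 1.16. Of all 410 strong regions 104 had a ratio above 1. The window near Il10rb held 15 copies, with 62 tags with Activin, 38 with DMSO and 25 with SB, and that in Ppap2a 11 copies, with 76, 54 and 24. Neither was called, at ratios of 1.5 (0.985–2.31) and 1.29 (0.901–1.87). Windows with so many copies may be repeats, as at Ccrl1, where tags could come from several units.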
